A study of Homo sapiens with 18 samples.

Results

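The genes described here encode the machinery that cuts pre-mRNA at its 3′ end, ends transcription there, or does both at other RNAs as the Integrator complex. They were taken from a fixed list of 42 gene symbols, chosen for what their products do, with earlier results of these data known. The table of readthrough reads held a row for 41 of the 42, among 13051 transcripts in all, and INTS2 was not analysed here. The question was whether the genes of this machinery themselves changed in readthrough when cells were treated.

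At most protein-coding genes, CPSF recognises the polyadenylation signal in the nascent RNA and its endonuclease CPSF3 (CPSF73) cuts downstream of it. CFIm and CstF bind sequences on either side of the cut, CFIIm links the complex to RNA polymerase II, and poly(A) polymerase adds the tail. The exonuclease XRN2 then degrades the RNA still attached to the polymerase, and phosphatases act on the polymerase and on elongation factors. Integrator carries INTS11, a relative of CPSF3, and cuts snRNAs, enhancer RNAs and RNAs of promoter-proximal polymerases. When cleavage fails the polymerase runs on, and the RNA past the gene end is called readthrough.

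Nascent RNA was taken from the chromatin of K562, an established chronic myeloid leukaemia cell line driven by the Bcr-Abl1 kinase, and sequenced as PacBio long reads in 18 libraries, 3 for each of 6 conditions. CTRL and CTRLim were both untreated, CTRLim being labelled as the control of the imatinib (IM) libraries. KCl 45min received 110 mM KCl for 45 min as a hyperosmotic shock, and JTE 1h received 5 µM JTE-607, an inhibitor of CPSF3, for 1 h. IM 1h and IM 18h received 1 µM imatinib, an inhibitor of Bcr-Abl1, for 1 h or 18 h. Each gene was represented by its transcript reaching farthest downstream, and a readthrough read ended more than 100 nt beyond that transcript. Levels are given as readthrough reads per 1000000 library reads, abbreviated RPM. Reads ending inside the genes were not used here, so a change in RPM mixes transcription of the gene with cleavage at its end, and fewer cells carrying a transcript cannot be told apart from less RNA per cell.

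Libraries held between 229855 and 1349556 reads, of which between 8422 and 57982 were readthrough reads. They formed 2 sets by mapping rate, with 40.5% to 44.1% in CTRL, KCl 45min and JTE 1h and 84.3% to 91.6% in CTRLim, IM 1h and IM 18h, so treatments were compared within a set. All 7 erythroid markers with a row had readthrough reads, between 31 and 1701 in sum per library, against 0 to 7 for the 6 markers of other cell types with a row. Of the 7701 erythroid marker reads HBG1 held 4159 and HBE1 2768. The other erythroid markers held between 38 (GATA1) and 408 (TAL1), and those of other cell types at most 23 (KRT8). The share of library reads that were readthrough was 3.06% in JTE 1h replicate 1 against 5.40% and 5.05% in replicates 2 and 3, a spread that accompanies every JTE 1h value below. The median length of readthrough reads was 1588, 2320 and 2243 nt in JTE 1h replicates 1, 2 and 3. In CTRL it was 1685, 1743 and 2187 nt. So the JTE 1h library with the lowest share also had the shortest readthrough reads of its condition.

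The polyadenylation signal is the sequence that CPSF reads, so the last 30 bases of the annotated transcript are shown for members on which the results turn and for CPSF3, 5′ to 3′ on the strand of the gene, from GENCODE 44 (GRCh38). Capitals mark AATAAA or its common variant ATTAAA, and readthrough was counted from 100 nt past the last base shown.
CPSF3 (chr2:9473072-9473101, plus strand): aaAATAAAatgcattcgtttctctggggga
CPSF4 (chr7:99457344-99457373, plus strand): ttatgaaatggATTAAAgcttgttttttaa
CPSF6 (chr12:69274329-69274358, plus strand): tattgaaAATAAAacaaacttttgataaga
NUDT21 (chr16:56429133-56429162, minus strand): tcatttcAATAAAaaatatttgaaagagaa
CSTF2T (chr10:51695486-51695515, minus strand): tgcagaaAATAAAgatacaattaaggctga
PCF11 (chr11:83187422-83187451, plus strand): gttgacctaagaacagctgagtatgggtgc
SCAF8 (chr6:154834215-154834244, plus strand): ctcctcagtatgtgtataatatctgtgtat
PPP1R10 (chr6:30600413-30600442, minus strand): gtacattaatAATAAAcagtggaaagagaa
INTS4 (chr11:77878720-77878749, minus strand): ctgtccacAATAAAgttgagaaaacaccaa

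PCF11 and SCAF8 held neither sequence in this window. Searched on the transcript strand over the last 50 bases, AATAAA was found in 26 of the 41 members (63.4%) and in 60.4% of the 12704 transcripts of the table that matched the annotation. ATTAAA without AATAAA was found in 3 members (7.32%) and 14.03% of all, and neither in 12 members (29.3%) and 25.6% of all. The transcript with the most distal end was the Ensembl canonical transcript for 22 of the 41 members, and for PCF11, SCAF8 and CPSF7 it was another one.

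Levels differed widely among the members. Over the 18 libraries they held 2463 readthrough reads, 0.550% of the 447434 in the table, with a median of 34 reads per member against 10 per transcript overall. Of the 41, 25 reached the minimum of 30 reads for a test, as did 26.7% of all transcripts, and 7 held at least 100. INTS4, a scaffold subunit of the Integrator cleavage module, held 505 reads and was seen in every library, and CPSF6, the larger CFIm partner subunit, followed with 181. Pseudogene copies of INTS4 are annotated, so its reads are uncertain to that extent. CPSF7, the other CFIm partner subunit, held 149 reads, SCAF8, an anti-terminator that binds the polymerase tail, 132, CSTF2T, the autosomal paralog of CSTF2, 126, CPSF4, a zinc finger subunit of CPSF, 112, and PPP1R10, the PNUTS scaffold of protein phosphatase 1, 100.

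Both endonucleases and several phosphatase subunits had few reads, while PAPOLA, the main nuclear poly(A) polymerase, held 86 and XRN2 58. CPSF3, the endonuclease and the target of JTE-607, held 7 reads in all, at most 1 in any library, with 1 in each of the 3 JTE 1h libraries. INTS11, the Integrator endonuclease, held 4 reads, PPP1CB, a catalytic subunit of protein phosphatase 1, 8 and SSU72, a phosphatase of the polymerase tail, 3. CPSF1, the largest CPSF subunit, and INTS1 had 0 of 11809272 library reads, which allows a level of up to 0.254 RPM, a limit that covers counting error only. For these 6 genes no difference between conditions was detectable at this depth.

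**Figure D1:**
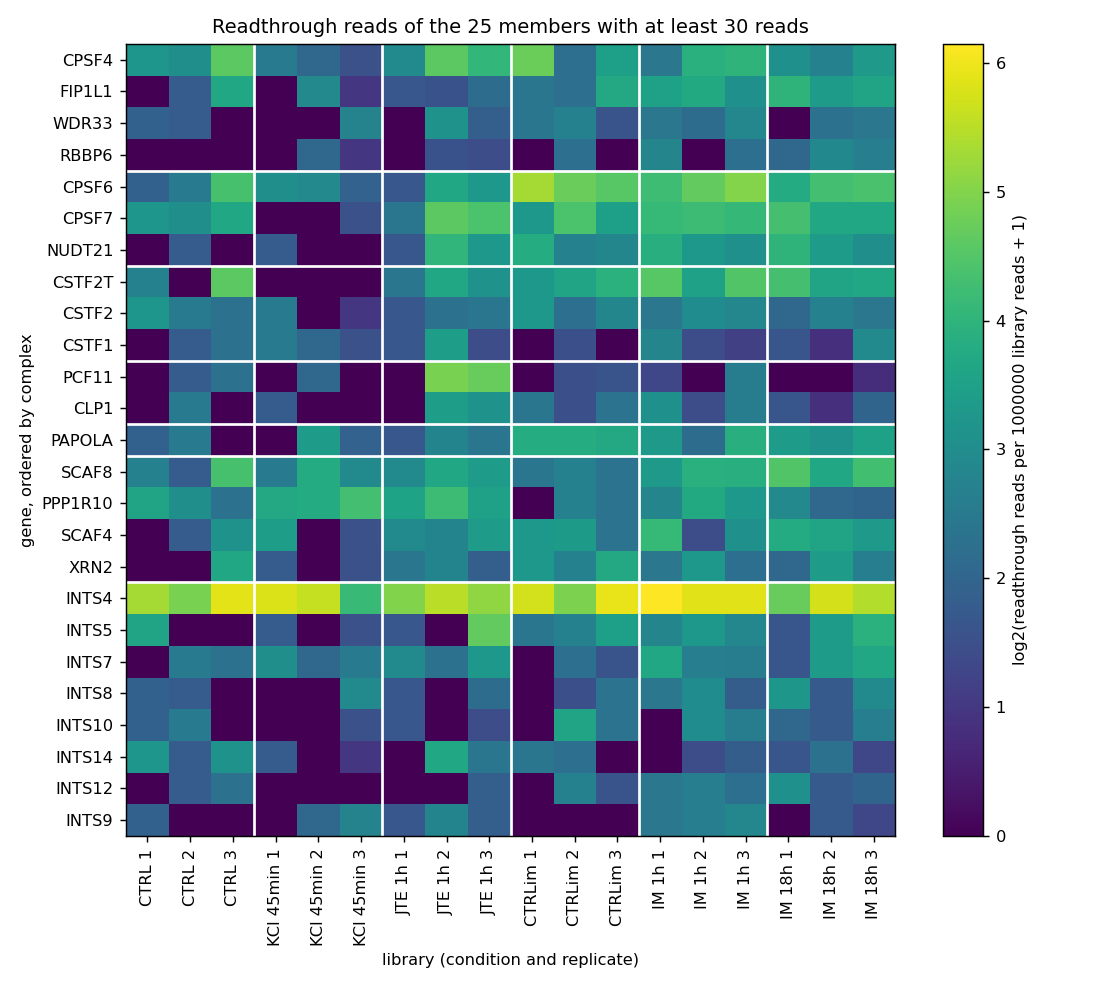
Level of the 25 members with at least 30 readthrough reads (rows, ordered by complex) in the 18 libraries (columns), colour giving log2(RPM + 1) from 0 to about 6. INTS4 is the brightest row in every library but KCl 45min replicate 3, and PCF11 is bright only in JTE 1h replicates 2 and 3.

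By complex, CFIm had all 3 subunits above the minimum and 416 reads, and the Integrator 8 of 13 with 899, of which INTS4 supplied 505. CPSF with WDR33, symplekin and RBBP6 had 4 of 8 with 288 reads, CstF 3 of 4 with 222, CFIIm both subunits with 93, the poly(A) polymerases and PABPN1 1 of 3 with 113, and the termination factors and phosphatases 4 of 8 with 432. The remaining tested members held between 31 (INTS9) and 92 (INTS5) reads. They were the CPSF subunits FIP1L1, WDR33 and the partner RBBP6, the CstF subunits CSTF1 and CSTF2, NUDT21, PCF11 and CLP1, PAPOLA, SCAF4 and XRN2, and the Integrator subunits INTS5, INTS7, INTS8, INTS9, INTS10, INTS12 and INTS14. Not tested, besides the 6 above, were CPSF2, CSTF3, SYMPK, PAPOLG, PABPN1, WDR82, PPP1CA, INTS3, INTS6 and INTS13, with 1 (SYMPK) to 29 (WDR82) reads.

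The place of the gene end bears on what was counted. The position 100 nt past the end lay inside another gene on the same strand for 4 members, INTS3, PPP1CB, SCAF8 and FIP1L1, and inside an antisense gene for 12, among them INTS4 (AAMDC), CPSF4, CSTF2T (PRKG1) and PCF11 (ANKRD42-DT). Whether counting used strand is not given in the sources used here, so reads of these genes and their antisense partners cannot be told apart. SCAF8 shares its last exon with TIAM2, PPP1CB with SPDYA, INTS3 with SLC27A3 and PABPN1 with BCL2L2-PABPN1. NUDT21 and INTS5 each share theirs with a same-strand gene annotated without a symbol. The reads of all these members may include reads of the gene sharing the exon. The next protein-coding gene on the same strand began 122 nt past the end of INTS5 (GANAB) and 557 nt past that of CPSF3 (IAH1). Members whose end lay in neither kind of gene numbered 26, with a median of 35.5 reads, against 39 for those with an antisense gene and 48.5 for those with a same-strand gene.

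JTE-607 was compared with CTRL to ask whether inhibiting the endonuclease raised readthrough at genes of its own complex. Of the 25 tested members 1 rose and 0 fell, against 0.805% of the 3480 tested transcripts called, all of them higher (edgeR quasi-likelihood test, adjusted p under 0.05). That gene was PCF11, the CFIIm subunit that bridges RNA and the polymerase tail. Its reads numbered 0, 1 and 1 in the CTRL libraries and 0, 15 and 29 in JTE 1h. PCF11 held 55 reads in all, 44 of them in JTE 1h, and would not have reached the minimum for a test without that group. The groups overlapped, because JTE 1h replicate 1 had no PCF11 read, and both other JTE 1h libraries were above every CTRL library. The mean was 2.10 ± 1.96 RPM (SD, n = 3) in CTRL and 18.1 ± 15.8 RPM in JTE 1h. The ratio of pooled levels was 10.7, with an exact 95% counting interval from 2.79 to 90.9. The log2 fold change was 3.21 ± 0.86 (SE) with an edgeR adjusted p of 0.035.

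The PCF11 call depended on the libraries and on the setting. Without JTE 1h replicate 1 its edgeR adjusted p was 0.00085, and without each CTRL library in turn it was 0.289, 0.182 and 0.0627. Without JTE 1h replicate 2 it was 0.159, and it was 0.0926 with the replicate block, 0.171 with total readthrough reads as library size and 0.920 with read length as a covariate in the 9 libraries of its set. With read length the log2 fold change was 1.37, against 3.13 in the same 9 libraries without it and 2.75 with total readthrough reads.

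NUDT21, the CFIm subunit that binds UGUA in the RNA, had 0, 1 and 0 reads in CTRL and 1, 8 and 10 in JTE 1h. Its mean was 0.812 ± 1.41 RPM in CTRL and 8.82 ± 6.69 RPM in JTE 1h, and the pooled ratio of 9.22 had a counting interval from 1.47 to 383. The groups overlapped in JTE 1h replicate 1, and the edgeR adjusted p was 0.213. CLP1, the other CFIIm subunit, had 0, 2 and 0 reads in CTRL and 0, 5 and 9 in JTE 1h. It held 38 reads in all, 14 of them in JTE 1h, and would not have reached the minimum without that group. CPSF7 had 3 reads in each CTRL library and 2, 12 and 23 in JTE 1h (edgeR adjusted p = 0.541). In all 4 of these genes JTE 1h replicate 1 was the lowest JTE 1h library. INTS5, named here after its values were seen, had 4, 0 and 0 reads in CTRL and 1, 0 and 28 in JTE 1h, so 1 library supplied nearly all of its reads.

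INTS4 gave 14, 12 and 15 reads in CTRL and 14, 23 and 39 in JTE 1h, or 42.0 ± 14.7 and 36.4 ± 7.43 RPM. The pooled JTE 1h to CTRL ratio was 0.8999 with a counting interval from 0.608 to 1.35. CPSF6, CSTF2T and SCAF8 also had intervals that included 1, with ratios of 1.03, 1.03 and 1.21. XRN2, the torpedo exonuclease, had 0, 0 and 3 reads in CTRL and 2, 3 and 3 in JTE 1h (edgeR adjusted p = 0.919). No tested member had all JTE 1h libraries above or below all CTRL libraries, against 12.2% of tested transcripts. The median log2 fold change was 0.52 over the 25 members and 0.54 over all tested transcripts.

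**Figure D2:**
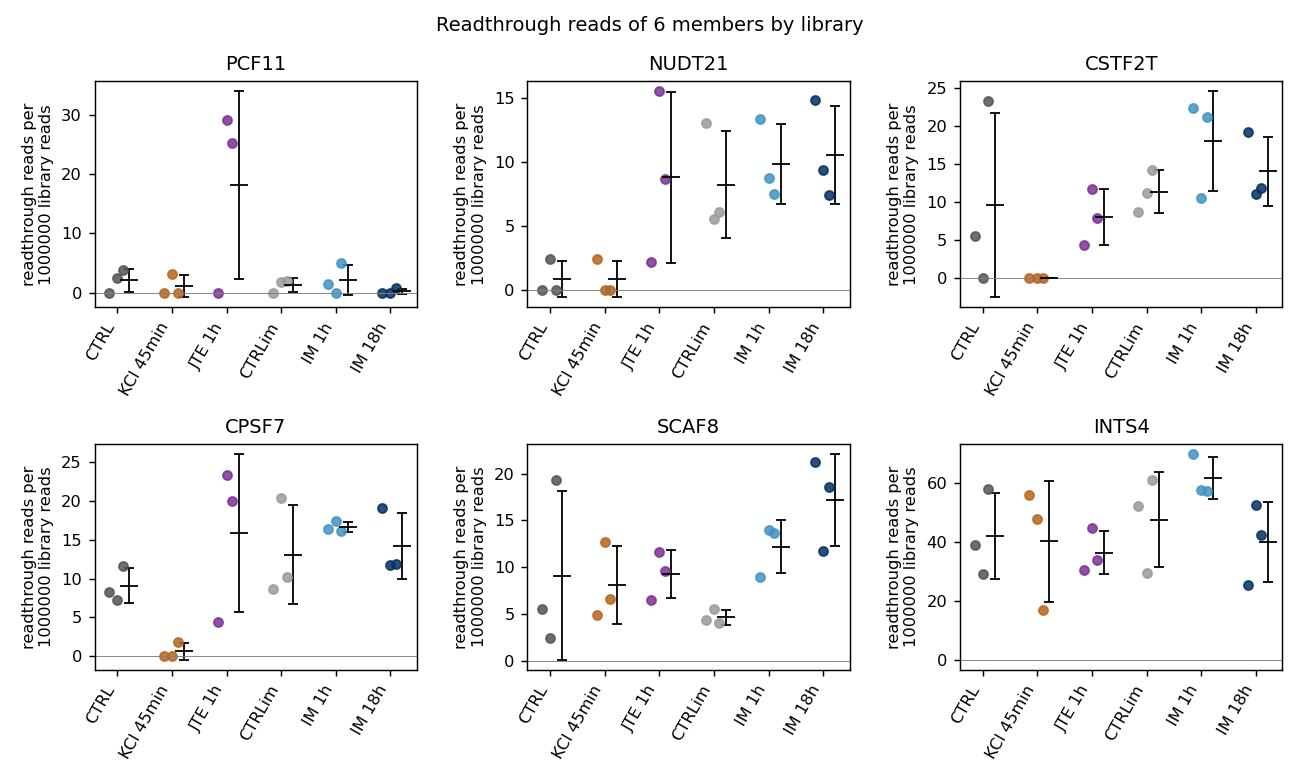
RPM of 6 members in each library (points, 3 per condition), with the mean and SD of the condition as black bars beside them. PCF11 is at 0 in JTE 1h replicate 1, and CSTF2T is at 0 in all 3 KCl 45min libraries and in 1 CTRL library.

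Hyperosmotic shock was the condition with the most calls over the table, and 1 of the 25 tested members fell with it. Of all tested transcripts 9.97% were called, 314 of the 347 lower. CSTF2T, which in CstF binds the GU-rich sequence past the cut, had 2, 0 and 6 reads in CTRL and 0, 0 and 0 in KCl 45min. The CTRL mean was 9.58 ± 12.1 RPM, and the pooled CTRL level was 4.61-fold above a floor of 3 reads over the KCl 45min group. That fold leaves out counting error in CTRL. The edgeR adjusted p was 0.0071, and the groups overlapped at 0. In the same comparison 4 of the 7 tested erythroid markers were called lower, and their part in the result was not tested. Without CTRL replicate 3 the edgeR adjusted p of CSTF2T was 0.231 and without KCl 45min replicate 3 it was 0.136. In fits of the 9 libraries of its set, with or without read length, CSTF2T was below the minimum of reads.

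CPSF7 and CPSF4 had lower values in KCl 45min that did not pass the test, while NUDT21 had 1 read in each group and WDR33 had 1, 1 and 0 reads in CTRL and 0, 0 and 6 in KCl 45min. CPSF7 had 3 reads in each CTRL library and 0, 0 and 2 in KCl 45min, or 9.08 ± 2.24 and 0.632 ± 1.09 RPM, and the groups did not overlap. Its pooled ratio was 0.129, with a counting interval from 0.0135 to 0.621 and an edgeR adjusted p of 0.0557. CPSF4 had 3, 3 and 6 reads in CTRL and 2, 1 and 2 in KCl 45min, again without overlap in RPM (edgeR adjusted p = 0.107). PPP1R10 had higher values in KCl 45min, with 4, 3 and 1 reads in CTRL and 5, 4 and 20 in KCl 45min, or 7.42 ± 3.61 and 14.6 ± 3.76 RPM. Its groups did not overlap, and its edgeR adjusted p was 0.381. With INTS14, which was lower, 4 of the 25 members had groups that did not overlap (1 higher, 3 lower), against 21.5% of tested transcripts.

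INTS4 kept a pooled KCl 45min to CTRL ratio of 0.790 with a counting interval from 0.519 to 1.21, from 23, 15 and 18 reads in KCl 45min. SCAF8 had 2, 1 and 5 reads in CTRL and 2, 4 and 7 in KCl 45min, a ratio of 0.940. The median log2 fold change was -0.74 over the 25 members and -0.58 over all tested transcripts. The median was then taken with members absent from 1 group at their fold against the floor. Those at or under the floor in both groups were left out. It was -0.12 over the 18 members that remained. No such median was taken over all transcripts, so this value has no counterpart to be set against.

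No member passed the threshold after 1 h of imatinib. edgeR called 0 of 25 and 0.0862% of all tested transcripts, 1 member had an unadjusted p under 0.05 against 5.46% of tested transcripts, and DESeq2 called 0. That member was INTS9, a partner of INTS11 in the Integrator cleavage module and named here after its values were seen. It had 0, 0 and 0 reads in CTRLim and 3, 3 and 5 in IM 1h, with an edgeR adjusted p of 0.558. Its pooled IM 1h level was 2.26-fold above a floor of 3 reads in CTRLim, leaving out counting error in IM 1h. INTS9 held 31 reads in all, 11 of them in IM 1h, and would not have reached the minimum for a test without that group. SCAF8 had 1, 3 and 2 reads in CTRLim and 6, 8 and 11 in IM 1h, or 4.66 ± 0.792 and 12.2 ± 2.84 RPM (edgeR adjusted p = 0.873). PPP1R10 had 0, 3 and 2 reads in CTRLim and 4, 7 and 7 in IM 1h. With INTS7, 4 members had every IM 1h library above every CTRLim library and 0 had them below, against 15% of tested transcripts in either direction.

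The cleavage factors with the most reads had counting intervals that included 1 at 1 h of imatinib, which does not show that they were unchanged. CPSF6 gave 9, 14 and 11 reads in CTRLim and 12, 14 and 25 in IM 1h, a pooled ratio of 0.924 with a counting interval from 0.587 to 1.47. CPSF7 had a ratio of 1.16 (0.639 to 2.19), CSTF2T of 1.56 (0.839 to 3.05) and INTS4 of 1.34 (0.973 to 1.86). The median log2 fold change was 0.42 over the 25 members and 0.27 over all tested transcripts. PCF11, with 0, 1 and 1 reads in CTRLim and 1, 0 and 4 in IM 1h, had a ratio of 1.54 (0.252 to 16.2).

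Imatinib for 18 h likewise gave 0 called members of 25, against 2.53% of tested transcripts. In the same comparison 2 of the 7 tested erythroid markers were called higher, and their part in the members' values was not tested. Of the members 2 had an unadjusted p under 0.05 in edgeR, SCAF8 and INTS7, against 13.3% of tested transcripts, and DESeq2 called 0. SCAF8 had 20, 15 and 25 reads in IM 18h, 17.2 ± 4.91 RPM, and every IM 18h library was above every CTRLim library. The pooled IM 18h to CTRLim ratio was 3.54 with a counting interval from 1.53 to 10.0, and the log2 fold change was 1.80 ± 0.65 (SE) with an edgeR adjusted p of 0.118. SCAF8 passed the threshold in 3 of its 18 alternatives, with TMM scaling (0.0325), in the 6 libraries of the comparison alone (0.0177) and in the 9 libraries of its set (0.0145), the last chosen after seeing the data. Its reads cannot be told apart from those of TIAM2, whose annotation covers the counted region.

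Against this, CPSF6 and PAPOLA had every IM 18h library below every CTRLim library. CPSF6 had 12, 24 and 27 reads in IM 18h, and its ratio of 0.656 had a counting interval from 0.425 to 1.03. PAPOLA had 3, 7 and 6 reads in CTRLim and 9, 10 and 14 in IM 18h, or 12.7 ± 0.475 and 9.26 ± 1.30 RPM. Its ratio of 0.730 had a counting interval from 0.390 to 1.42. So 3 of 25 members had groups that did not overlap, against 22.8% of tested transcripts. NUDT21 had 3 reads in each CTRLim library and 14, 12 and 10 in IM 18h, a ratio of 1.42 (0.669 to 3.34), and XRN2 had 2, 3 and 6 against 3, 12 and 7, a ratio of 0.708 (0.329 to 1.62). The median log2 fold change was 0.07 over the 25 members and -0.01 over all tested transcripts.

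Between the imatinib times edgeR called 0 of 25 members, with 2 at an unadjusted p under 0.05 (INTS9 and PCF11) against 14.9% of tested transcripts, DESeq2 called 0, and 2.33% of tested transcripts were called. INTS4 had 47, 33 and 46 reads in IM 1h and 24, 67 and 57 in IM 18h, or 61.6 ± 7.16 and 40.1 ± 13.6 RPM, without overlap. Its pooled IM 18h to IM 1h ratio was 0.675 with a counting interval from 0.528 to 0.863, and its edgeR adjusted p was 0.456. INTS9 was the other member without overlap, also lower at 18 h, so these were 2 of 25 against 26.4% of tested transcripts. The median log2 fold change was -0.10 over the members and -0.33 over all tested transcripts.

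**Figure D3:**
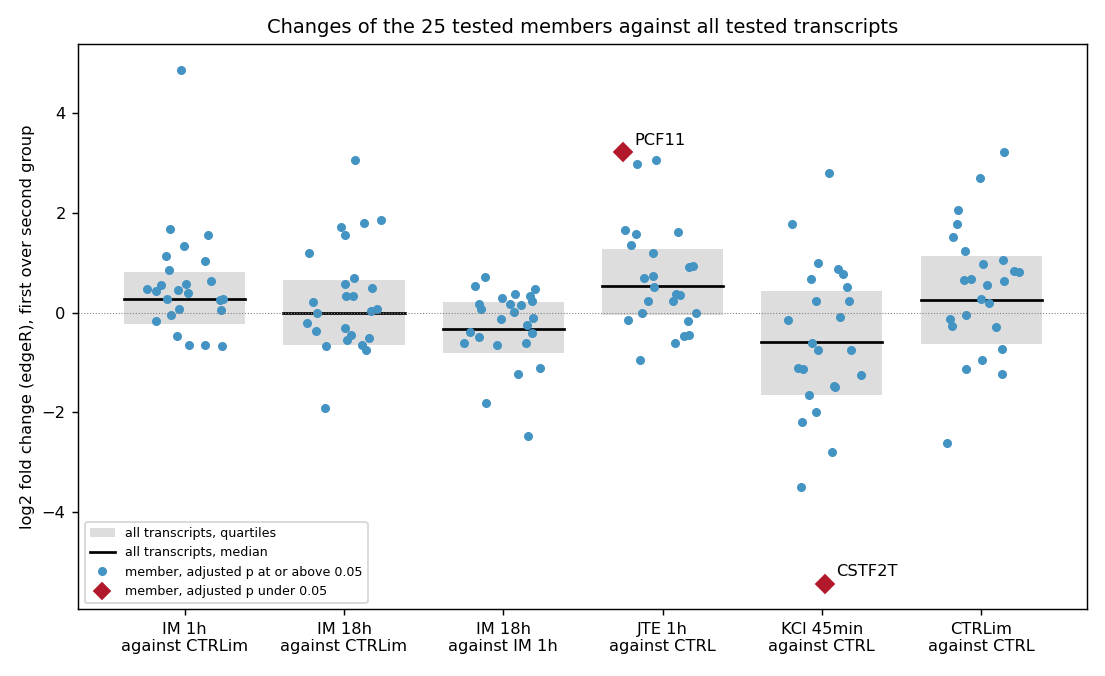
log2 fold change of the 25 tested members (points) in each of the 6 comparisons, with the quartiles (grey band) and median (line) of all 3480 tested transcripts. The 2 members with an adjusted p under 0.05, PCF11 in JTE 1h and CSTF2T in KCl 45min, are drawn as diamonds.

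The untreated groups were compared to show what differed between the sets without a treatment. edgeR called 0 of 25 members, with 3 at an unadjusted p under 0.05 (CPSF6, PAPOLA and NUDT21) against 14.4% of tested transcripts, DESeq2 called 0, and 1.64% of tested transcripts were called. CPSF6 had 1, 2 and 5 reads in CTRL and 9, 14 and 11 in CTRLim, or 8.99 ± 9.02 and 29.1 ± 8.86 RPM, a pooled ratio of 3.47 (1.58 to 8.67) with an edgeR adjusted p of 0.134. The 3 genes were also the only tested members whose CTRLim and CTRL libraries did not overlap, against 20% of tested transcripts. In the same comparison 1 of the 7 tested erythroid markers was called higher in CTRLim. It was HBE1, with a log2 fold change of 1.84 and an edgeR adjusted p of 0.0013, and its part in the members' values was not tested. The set, its cultures, its preparation and its sequencing cannot be told apart.

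Summed over the 41 members, readthrough was highest on average in IM 1h and lowest in KCl 45min. The sums were 136, 127 and 228 RPM in CTRL, 136, 121 and 103 RPM in KCl 45min and 120, 298 and 247 RPM in JTE 1h. They were 226, 200 and 223 RPM in CTRLim, 267, 249 and 275 RPM in IM 1h and 211, 216 and 238 RPM in IM 18h. All 3 IM 1h libraries were above all CTRLim and IM 18h libraries, and the mean of IM 1h was 47.5 RPM above CTRLim, with an SD of at most 14.4 RPM within either group. Counts of CTRLim replicates 2 and 3, and of IM 1h replicate 1 with replicates 2 and 3, agreed within sampling noise. How much of that SD lies beyond counting error was not tested. As a share of all readthrough reads the members made up 0.602% ± 0.032 in IM 1h, 0.539% ± 0.037 in CTRLim and 0.598% ± 0.040 in IM 18h, and the groups overlapped. JTE 1h was 57.7 RPM above CTRL and KCl 45min 43.3 RPM below it, both within the larger group SD of 91.6 and 56.1 RPM. As a share of all readthrough reads the order did not hold, with 0.478% ± 0.144 in CTRL, 0.477% ± 0.081 in JTE 1h and 0.496% ± 0.054 in KCl 45min.

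**Figure D4:**
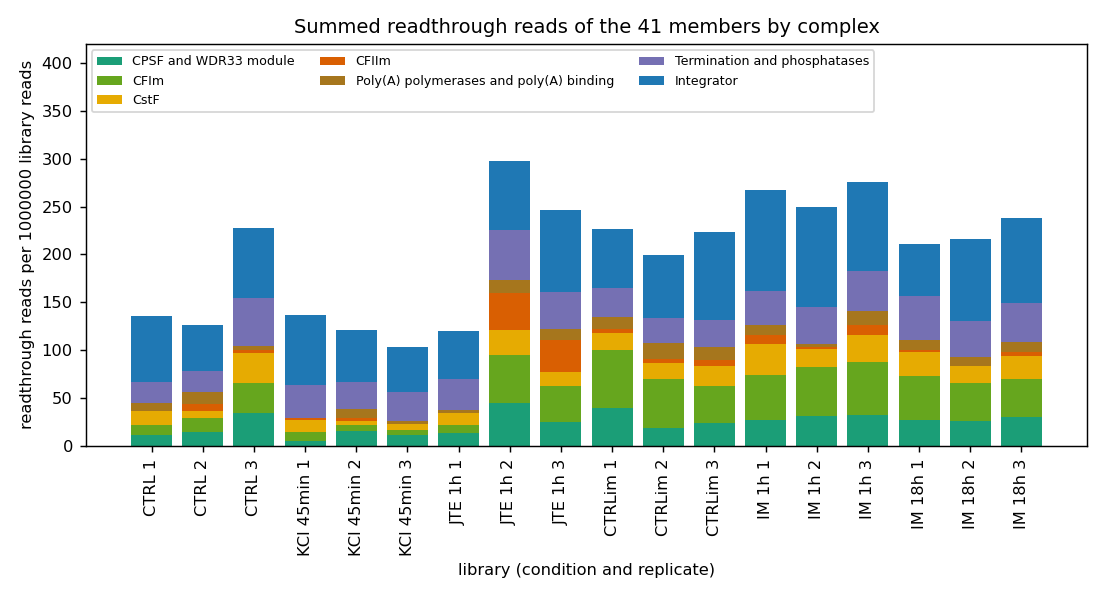
Summed RPM of the 41 members in each library, stacked by complex. The IM 1h libraries reach 249 to 275 RPM and the CTRLim libraries 200 to 226 RPM, while JTE 1h ranges from 120 to 298 RPM.

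By complex, the Integrator summed to 101 ± 7.46 RPM in IM 1h, 73.0 ± 16.2 RPM in CTRLim and 75.9 ± 18.8 RPM in IM 18h. As shares of all readthrough reads IM 1h and CTRLim overlapped, 0.230% ± 0.017 and 0.184% ± 0.051. INTS4 alone supplied 126 of the 205 Integrator reads in IM 1h and 58 of the 95 in CTRLim. CFIm summed to 6.95 ± 2.55 RPM in KCl 45min and 18.9 ± 10.6 RPM in CTRL, and all 3 KCl 45min libraries were below all CTRL libraries in RPM, whereas the groups overlapped as shares of all readthrough reads, 0.0285% ± 0.0097 and 0.0549% ± 0.029. All readthrough made up 2.43% ± 0.27 of library reads in KCl 45min and 3.399% ± 0.13 in CTRL. The termination factors and phosphatases summed to 31.0 ± 2.78 RPM in KCl 45min and 31.5 ± 16.3 RPM in CTRL. CFIIm summed to 3.73 ± 3.66 RPM in CTRL and 24.0 ± 21.0 RPM in JTE 1h, where replicate 1 was at 0.

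Genes that work beside this machinery were taken as 5 lists of 56 genes, other Integrator partners, histone pre-mRNA processing, kinases and phosphatases of the polymerase tail, pausing and elongation factors, and nuclear RNA decay. Of these 54 had a row and 21 were tested, and in JTE 1h, IM 1h, IM 18h and between the imatinib times 0 were called by edgeR, with 0, 2, 1 and 3 at an unadjusted p under 0.05. The shares of all tested transcripts at that unadjusted p were 12.6%, 5.46%, 13.3% and 14.9%. KCl 45min gave 1 higher and 2 lower of the 21, against 9.97% of all tested transcripts called. NABP1, a single-strand DNA binding partner of INTS3, rose from 5, 1 and 3 reads in CTRL to 6, 14 and 46, a pooled ratio of 4.24 (2.10 to 9.68) with an edgeR adjusted p of 0.0131. NCBP2, the small subunit of the cap-binding complex, fell from 4, 3 and 3 reads to 0 in all 3 libraries (edgeR adjusted p = 0.0027). Its pooled CTRL level was 5.76-fold above a floor of 3 reads in KCl 45min. DHX9, an RNA helicase, had 5, 4 and 10 reads in CTRL and 1, 2 and 3 in KCl 45min (edgeR adjusted p = 0.0141). Between the untreated groups SLBP, which binds the histone stem-loop, had 5, 2 and 2 reads in CTRL and 0 in all CTRLim libraries (edgeR adjusted p = 0.0477).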

How the data were processed

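Readthrough reads were measured in 18 long-read nascent RNA libraries. The authors trimmed adapters with cutadapt, mapped to GRCh38.p14 with minimap2, collapsed molecular identifiers and removed polyadenylated and nonunique reads. They deposited whole-number counts of readthrough reads per representative transcript, neither normalized nor pooled. Library reads, after the study's filters, came from its read statistics and served as library sizes, so that RPM is readthrough reads per 1000000 library reads.

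Members and lists were chosen with earlier results of these data known. Named are members called in a treatment comparison, members with at least 100 reads, and CPSF3, INTS11, PCF11, XRN2, CPSF1, NUDT21, PPP1CB and SSU72. Of each other list at most the 3 called genes with the smallest adjusted p are named. Other members are given so that each is accounted for. Transcripts were matched to GENCODE 44 by identifier (12704 of 13051).

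edgeR 4.0.16 (glmQLFit, glmQLFTest) in R 4.3.3 was fitted once to all 18 libraries, with 1 mean per condition, on the 3480 transcripts with at least 30 reads in sum. Benjamini-Hochberg adjustment ran over all of these within each comparison, with a threshold of 0.05. The SE is the log2 fold change over the root of the F statistic. Fits of 6 libraries would have left most members untested and were an alternative, as was DESeq2 1.42.0. Ratios of pooled levels have exact 95% counting intervals, which cover counting error only. Folds against 0 use 3 reads over the empty group and leave out counting error in the other group, so they are not lower limits. Replicates are labelled biological. Counts of CTRLim replicates 2 and 3 agree within sampling noise (chi-square p = 0.0945). So do those of IM 1h replicate 1 with replicate 2 (chi-square p = 0.428) and with replicate 3 (chi-square p = 0.227). Read totals of these libraries differ, so they were kept apart. Summing CTRLim replicates 2 and 3, and IM 1h replicates 1 and 2, was an alternative chosen after seeing the data. Tables and intervals were made in Python 3.11.15 (pandas 2.3.3, scipy 1.17.1).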

Additional observations from a re-analysis of the deposited data

How the results depend on the processing

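In JTE 1h against CTRL the count of called members was 1 and became 0 with a minimum of 10 reads, no minimum, TMM scaling, total readthrough reads as library size, DESeq2 (where PCF11 had no adjusted p), the replicate block, the 6 libraries alone, read length as a covariate and, chosen after seeing the data, the 9 libraries of the set. It ranged from 0 to 1 when a library was left out, and without JTE 1h replicate 3 PCF11 was below the minimum. In KCl 45min against CTRL it was 1 and became 0 in the 6 and the 9 libraries, where CSTF2T was below the minimum, was 1 through another gene with read length as a covariate in the 9 libraries (CPSF7, edgeR adjusted p 0.0247, with CSTF2T again below the minimum), and ranged from 0 to 1 when a library was left out. IM 18h against CTRLim had 0 and gave 1 with TMM scaling, the 6 libraries, the 9 libraries (SCAF8 each time) and CTRL as control (NUDT21). IM 18h against IM 1h had 0 and gave 1 in the 6 libraries, INTS4 with an edgeR adjusted p of 0.0399. Leaving out a library kept 0 in these comparisons, in IM 1h against CTRLim and in CTRLim against CTRL. Summing CTRLim replicates 2 and 3, and IM 1h replicates 1 and 2, also kept 0. INTS5 in JTE 1h had a log2 fold change of 1.57, and from -1.73 (without JTE 1h replicate 3) to 6.02 when a library was left out. Except where a fit lost the gene through its own minimum, the cause was not tested.

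Replicate numbers were not taken as pairs, since same-numbered libraries deviated together with correlations from -0.12 to 0.24 over 912 transcripts. The highest were in JTE 1h against CTRL (0.24, 0.0031 and 0.23 for replicates 1, 2 and 3) and in KCl 45min against CTRL (0.21, 0.024 and 0.21). In both comparisons 2 of 3 treated libraries correlated best with their own number, as in IM 18h against IM 1h. In IM 18h against CTRLim all 3 IM 18h libraries did so, with correlations from 0.037 to 0.074. The replicate block moved only the JTE 1h count.

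The difference in summed member reads was also taken with total readthrough reads as library size. It was rescaled to RPM by the share of readthrough reads among all library reads of the 18 libraries. It was then 23.8 RPM for IM 1h against CTRLim, 22.4 for IM 18h against CTRLim and -1.36 for IM 18h against IM 1h. For KCl 45min against CTRL it was 6.81 in place of -43.3. With mapped reads, rescaled to library reads in the same way, IM 18h against CTRLim was 21.2. Without INTS4 IM 18h against IM 1h was -21.1. With a library left out the differences ranged from 39.2 to 54.8 for IM 1h against CTRLim, from -3.31 to 10.4 for IM 18h against CTRLim, from -50.7 to -36.9 for IM 18h against IM 1h, from 19.6 to 108.5 for JTE 1h against CTRL, from -61.8 to -11.0 for KCl 45min against CTRL and from 34.5 to 85.3 for CTRLim against CTRL. With 3 libraries a group and a median of 34 reads per member, modest changes were not detectable for most members.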
